A study of Mus musculus with 8 samples.

Results

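The genes described here run bile acid synthesis in the liver and its feedback through the farnesoid X receptor (FXR). They are 10 of the 55487 genes with deposited values, and were chosen by name: Cyp7a1, Cyp8b1, Cyp27a1, Cyp7b1, Hsd3b7, Akr1d1, Baat, Slc27a5, Nr1h4 and Nr0b2. Each name had 1 row, and all 10 genes were among the 11514 that reached at least 1 FPKM in at least 2 libraries and were tested. FPKM, fragments scaled to transcript length and to the fragments mapped in the library, is already divided by length, so it can be set side by side for different genes of a library.

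RNA was sequenced from the livers of male wild-type C57BL/6N mice in 4 groups. Western diet + oil (2 libraries) combined a high-fat diet and sugared drinking water, with fructose at 23.1 g/L and glucose at 18.9 g/L, with injections of corn oil. Normal diet + CCl4 (2 libraries) combined chow and tap water with injections of carbon tetrachloride, a toxin that hepatocytes turn into a radical. Western diet + CCl4 (1 library) combined that diet and that toxin. Normal diet + oil (3 libraries), the control, received chow, tap water and corn oil. All groups were injected into the peritoneum once a week. The sources used here give no dose of CCl4, duration, age, hour of sampling or link of libraries to separate animals. The p-values therefore compare differences with the scatter of these 8 libraries, part of which may be technical.

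Bile acids are made from cholesterol in hepatocytes by a pair of routes. The classical route starts with Cyp7a1, the rate-limiting enzyme, and Cyp8b1 adds the hydroxyl group that makes cholic acid and so sets how much cholic acid is made. The alternative route starts with Cyp27a1 in mitochondria and continues with Cyp7b1, an oxysterol hydroxylase. Hsd3b7 and Akr1d1 then modify the steroid rings in both routes. Slc27a5 activates the acids with coenzyme A, and Baat joins them to taurine or glycine. FXR, the product of Nr1h4, is a nuclear receptor for bile acids that induces Nr0b2, also called SHP, a repressor of Cyp7a1 and Cyp8b1. In the intestine FXR induces Fgf15, a hormone that represses the same pair of enzymes in the liver.

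The FPKM of a library summed to between 514832 and 612747, and between 12531 and 14843 genes were above 0. Of that sum the Mup genes, which encode abundant urinary proteins, took 9.16% and 10.04% in western diet + oil, 2.80% and 4.65% in normal diet + CCl4, 8.22% in western diet + CCl4 and 16.9% to 32.5% in normal diet + oil. FPKM is a share, and the gene at the median of all those tested lay at a log2 fold change of 0.22 in western diet + oil, 0.26 in normal diet + CCl4 and 0.19 in western diet + CCl4, each against normal diet + oil. Median-of-ratios scaling brought these shifts to -0.0020, 0.00029 and 0.0048. Sums of marker lists are given lowest first, not by library number. The 8 hepatocyte markers summed to 31868 and 39006 FPKM in western diet + oil, 50858 and 57053 in normal diet + CCl4, 36725 in western diet + CCl4 and 34635 to 44328 in normal diet + oil, and none was at 0 in every library. Most of that sum was Alb, with 32099 of the 50858 and 38054 of the 57053 FPKM in normal diet + CCl4. By log2 fold change in that group, 4 of the 8 markers lay above 0 and 4 below. In bulk liver, fewer cells of a type and less RNA per cell cannot be told apart.

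In normal diet + oil the 10 genes spanned a mean of 7.67 to 194 FPKM. Slc27a5 (194 ± 15.1, SD, n = 3) and Cyp27a1 (190.5 ± 20.8) stood highest and did not differ beyond their spread. Hsd3b7 (155 ± 20.9), Cyp7b1 (125 ± 42.8), Cyp8b1 (94.7 ± 25.4) and Baat (79.6 ± 9.43) followed, each with a mean ± SD that overlapped that of the gene before it. Nr1h4 (34.8 ± 4.94) stood clear of Baat above and of Akr1d1 (21.3 ± 3.36) below. Nr0b2 (20.6 ± 15.8) spread so widely that it overlapped Nr1h4, Akr1d1 and Cyp7a1 (7.67 ± 1.43), the lowest. In this order of the 10 genes Cyp7b1 was 8th in western diet + oil, 8th in normal diet + CCl4 and 7th in western diet + CCl4, against 4th in normal diet + oil. The bottom place was held by Cyp7a1 in western diet + oil and by Nr0b2 in both groups with CCl4.

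**Figure D1:**
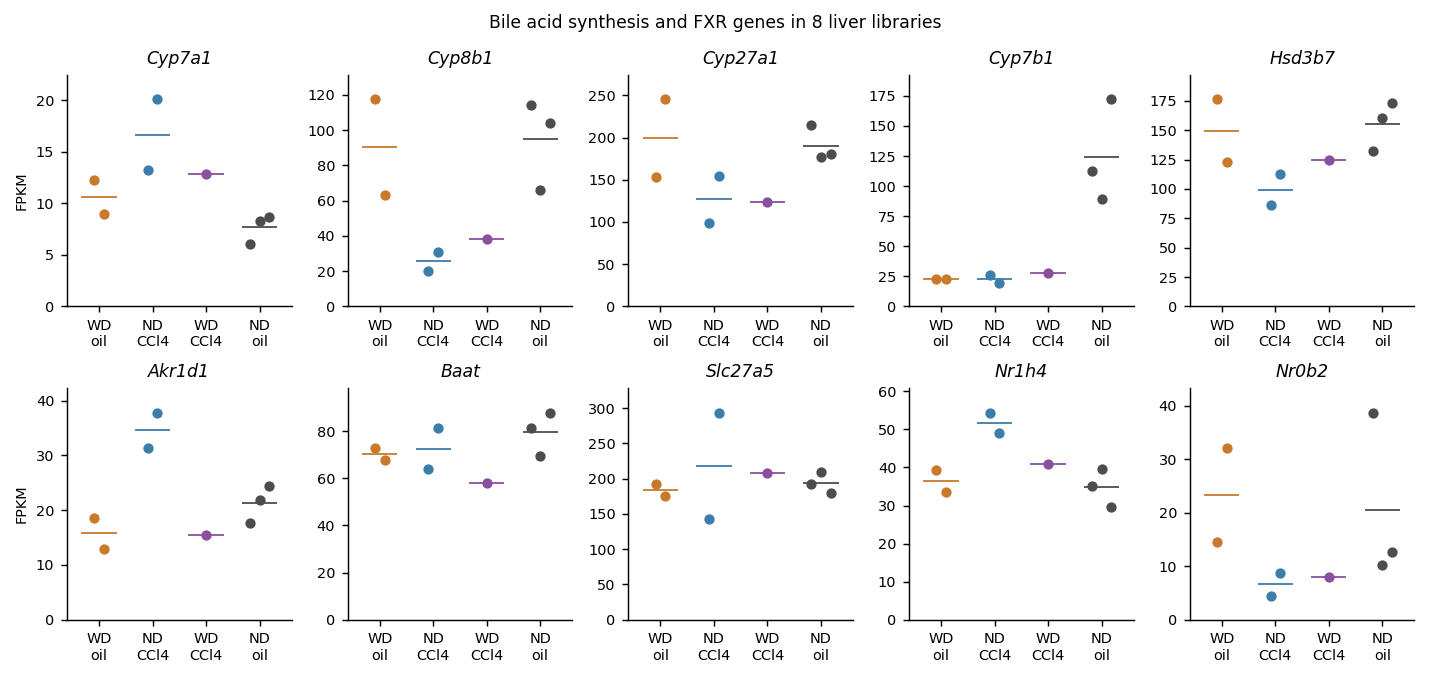
FPKM (linear axes from 0, one scale per gene) of the 10 genes in the 8 libraries, with a point per library and a bar at each group mean; WD is western diet and ND normal diet. Cyp7b1 is at 19.7 to 27.5 FPKM in the 5 libraries with western diet, CCl4 or both and at 89.1 to 172 FPKM in the 3 of ND + oil, while Baat and Slc27a5 overlap between western diet + oil and ND + oil.

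Cyp7b1 was the 1 gene of the 10 with a limma adjusted p below 0.05 in the main comparisons with normal diet + oil. It lies on the minus strand of chromosome 3 (ENSMUSG00000039519, chr3:18071950-18243338 in GRCm38, the build of all coordinates here, from GENCODE M21), and the small Gm23686 lies within its span on the same strand. It fell in each of the 3 groups set against normal diet + oil, to 22.5 and 22.7 FPKM in western diet + oil, 25.9 and 19.7 FPKM in normal diet + CCl4 and 27.5 FPKM in western diet + CCl4, against 112, 89.1 and 172 FPKM in normal diet + oil. The 5 low values did not overlap with the 3 of the control, the lowest of which was 89.1 FPKM. All comparisons used limma on log2(FPKM + 1) over all 11514 tested genes, with Benjamini-Hochberg adjustment. The log2 fold change of Cyp7b1 was -2.36 ± 0.28 (SE) in western diet + oil (limma adjusted p = 0.0137, 95% interval -3.01 to -1.71), which puts its level at 0.195 of the control. With normal diet + CCl4 it was -2.36 ± 0.28 (limma adjusted p = 0.0123), and in western diet + CCl4 it was -2.09 ± 0.35 (limma adjusted p = 0.0483, 95% interval -2.91 to -1.27). The 3 comparisons share the same control libraries, so they are not independent of each other.

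Over all genes tested, 4.41% passed in western diet + oil, 1.42% in normal diet + CCl4 and 0.929% in western diet + CCl4. Of the 10 bile acid genes, 1 passed in each, and it was Cyp7b1, lower. Genes whose 5 libraries outside the control all lay above or all below the control made up 22.8% of those tested, 2467 of them higher and 163 lower. Among the bile acid genes Cyp7b1 was the 1 gene of this kind that was lower, also under both other scalings. Cyp7a1 was the 1 that was higher, by a margin of 8.96 FPKM in western diet + oil library 2 against 8.71 FPKM in normal diet + oil library 3, and it overlapped both with median-of-ratios scaling and without the Mup genes. The median log2 fold change of the 10 genes was -0.07 in western diet + oil, -0.37 in normal diet + CCl4 and -0.43 in western diet + CCl4, beside the medians of all genes given above.

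Cyp7b1 lost its call in western diet + oil without western diet + oil library 1 (limma adjusted p = 0.0832) or library 2 (limma adjusted p = 0.142), in normal diet + CCl4 without library 1 of that group (limma adjusted p = 0.0578) or without the filter on low values (limma adjusted p = 0.0619), in both in an additive model of diet and CCl4, chosen after seeing the data (-1.42 each, limma adjusted p = 0.165 and 0.288), and in western diet + CCl4 under several settings given in the closing section. Its log2 fold change stayed between -2.68 and -1.42 in the first 2 comparisons under every setting run.

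**Figure D2:**
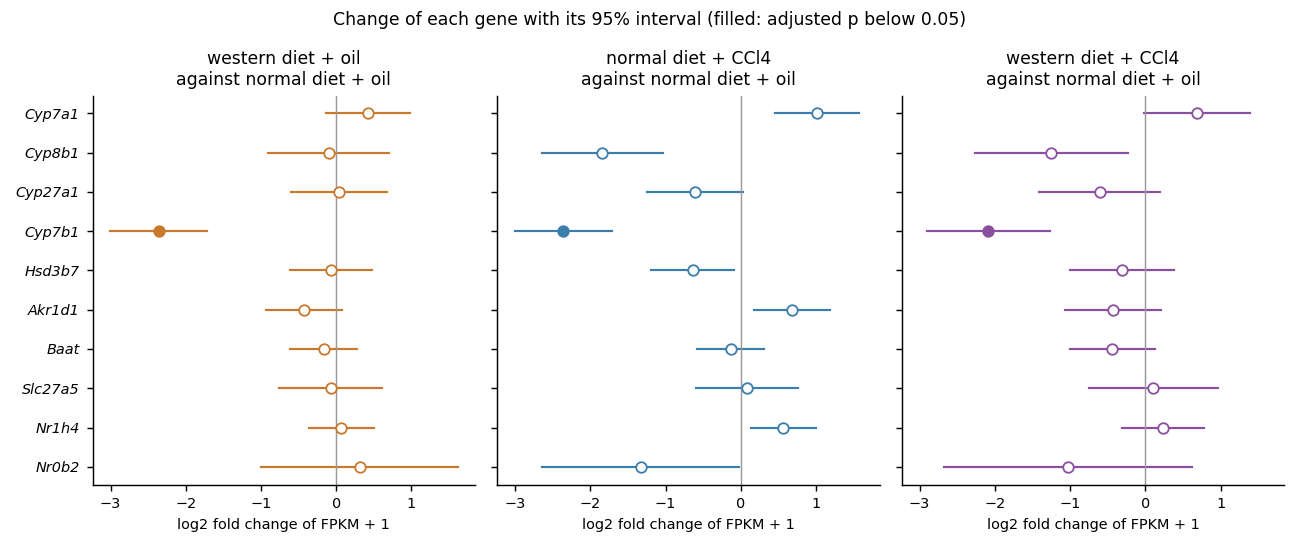
Log2 fold change of FPKM + 1 for each of the 10 genes (points) with its 95% interval (lines) in western diet + oil, normal diet + CCl4 and western diet + CCl4, each against normal diet + oil; filled points have a limma adjusted p below 0.05. Cyp7b1 is the filled point in all 3 panels, at -2.36, -2.36 and -2.09, and Cyp8b1 at -1.84 in normal diet + CCl4 is the next lowest.

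The levels of Cyp7b1 with western diet alone and with CCl4 alone were close. The log2 difference of western diet + oil from normal diet + CCl4 was 0.000068 ± 0.31, with a 95% interval of -0.71 to 0.71. Its level in western diet + CCl4, 27.5 FPKM, was not below either, with a log2 fold change of 0.27 ± 0.38 against each and a 95% interval of -0.60 to 1.14. If both treatments added up on the log2 scale, their combination would lie below each of them, and the interaction of diet and CCl4, which measures the departure from such a sum, was 2.63 ± 0.47 for Cyp7b1 (95% interval 1.55 to 3.71). It rests on the 1 library with both treatments and missed the threshold (limma adjusted p = 0.164), in a comparison where 0.0608% of all genes passed and 0 of the 10 did. Without adjustment, 1126 of all genes and 1 of the 10, Cyp7b1, had a limma p below 0.05.

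Cyp7b1 is expressed more in male than in female mouse liver, a sex difference set by pulsatile growth hormone through STAT5. A list of 12 other male-biased genes was therefore set beside it. Of these, 5 fell in western diet + oil, 5 in normal diet + CCl4 and 3 in western diet + CCl4, and 0 rose in any of the 3. Hsd3b5, a steroid reductase, was 9.05 and 1.81 FPKM in western diet + oil, 1.81 and 1.08 in normal diet + CCl4 and 1.32 in western diet + CCl4, against 80.2, 100.4 and 138 in normal diet + oil. In the same order of groups its log2 fold change was -4.30 ± 0.49, -5.44 ± 0.49 and -5.49 ± 0.62 (limma adjusted p = 0.0125, 0.00426 and 0.00914). Slco1a1, an organic anion transporter, was 21.2 and 14.4 FPKM in western diet + oil, 4.22 and 5.64 in normal diet + CCl4 and 7.19 in western diet + CCl4, against 59.6, 50.1 and 67.9 in normal diet + oil. For both genes the 3 control libraries stood above all 5 others, as for Cyp7b1. The median of the 12 was -1.31, -1.21 and -1.31 on the log2 scale in the 3 groups. Of the 11 female-biased genes, 4 could be tested: 1 rose in western diet + oil (Cyp2b9, 2.22 ± 0.44, limma adjusted p = 0.0369), 2 rose in normal diet + CCl4 (Cyp2a4, 3.02 ± 0.52, and Acot3, 2.11 ± 0.37, limma adjusted p = 0.0402 and 0.0417) and 0 in western diet + CCl4. In normal diet + oil Cyp2b9 and Acot3 were at or near 0. Cyp2b9 was 0, 1.61 and 0.286 FPKM there, against 6.46 and 5.57 in western diet + oil. Acot3 was 0.730, 0.422 and 0 FPKM there, against 6.97 and 3.24 in normal diet + CCl4. None of 9 genes of growth hormone and STAT5 signalling passed in any of the 3 comparisons. Whether any of these genes shares its cause with Cyp7b1 was not tested.

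**Figure D3:**
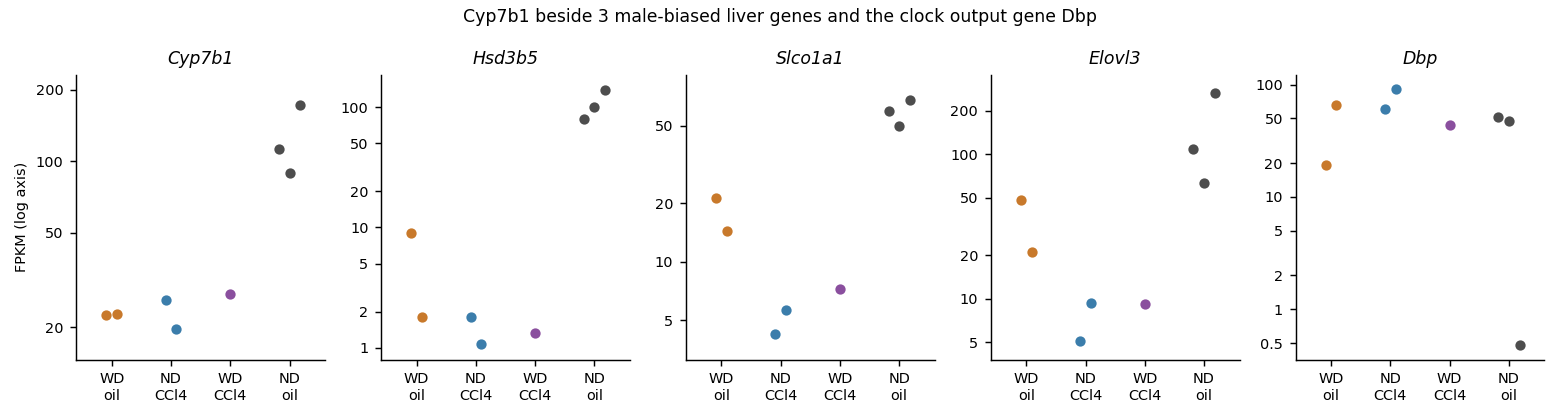
FPKM (log axes, one scale per gene) of Cyp7b1, of the male-biased genes Hsd3b5, Slco1a1 and Elovl3, and of the clock output gene Dbp, with a point per library; WD is western diet and ND normal diet. The 3 ND + oil libraries are above all others for the first 4 genes, and ND + oil library 3, highest for those, is lowest for Dbp at 0.481 FPKM.

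Normal diet + oil library 3 held the highest Cyp7b1 (172 FPKM), the highest Mup share (32.5%) and a clock unlike the other libraries of its group. Dbp, a transcription factor that cycles over the day, was 0.481 FPKM there and 51.1 and 47.8 FPKM in libraries 1 and 2, and Arntl, a core clock activator, was 4.31 FPKM there and listed at 0 in the other two. Western diet + oil library 1, with Dbp at 19.2 FPKM, was the next lowest for that gene. None of the 15 clock genes tested passed in any of the 3 comparisons. Without normal diet + oil library 3 the log2 fold change of Cyp7b1 was -2.10 in western diet + oil (limma adjusted p = 0.0163), -2.10 in normal diet + CCl4 (limma adjusted p = 0.00963) and -1.83 in western diet + CCl4 (limma adjusted p = 0.0461). Cyp7a1 and Nr0b2 are known to vary over the day in mouse liver. That library was the highest of its group for Cyp7a1, at 8.71 FPKM, and the middle one for Nr0b2, at 12.7 FPKM, and the part of the hour in any of these values was not tested.

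Markers of other liver cells also moved. Their sums are again given lowest first, not by library number. In normal diet + CCl4 the higher sum of each pair was that of library 1, where Cd5l, for example, was 77.3 FPKM, against 26.5 in library 2. The 9 Kupffer cell markers all rose in western diet + oil, where they summed to 539 and 1038 FPKM. Their sum was 146 and 394 in normal diet + CCl4 and 449.5 in western diet + CCl4, against 78 to 139 in normal diet + oil, and 0 of 9 passed in the 2 groups with CCl4. The 9 stellate cell and fibroblast markers summed to 117 and 135.5 FPKM in western diet + oil, where 2 rose (Colec11 and Dcn), 64.7 and 192 in normal diet + CCl4 and 92.7 in western diet + CCl4, against 35.5 to 48.9 in normal diet + oil. The 7 sinusoidal endothelial markers summed to 59.8 and 68.8 in western diet + oil, where 3 rose (Stab2, Pecam1 and Lyve1), 46.4 and 76.6 in normal diet + CCl4 and 36.7 in western diet + CCl4, against 28.8 to 37.7 in normal diet + oil. No marker of these 3 lists was at 0 in every library, and their part in the levels of the bile acid genes was not tested. The 7 markers of monocyte-derived macrophages summed to 183 and 380 FPKM in western diet + oil, 66.2 and 270.1 in normal diet + CCl4 and 190.2 in western diet + CCl4, against 26.9 to 75.9 in normal diet + oil, and none passed. Lyz2 alone gave 128 and 312 FPKM of the sums in western diet + oil. Of 5 erythroid genes 3 rose in western diet + oil, as did Cfd, the 1 tested adipocyte gene, and Fabp2, 1 of 2 tested intestinal genes. The other 3 adipocyte genes listed (Adipoq, Plin1 and Lep) were at 0 in all 8 libraries. So were 3 of the 5 intestinal genes listed (Vil1, Fgf15 and Sis). None of the 8 hepatocyte markers passed in any of the 3 comparisons, with medians of -0.02, 0.01 and -0.14.

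The genes closest to Cyp7b1 in pattern over the 8 libraries, by the root mean square difference of centred log2(FPKM + 1), were Capn8 (0.405), Cyp2u1 (0.413), Susd4 (0.465) and Lifr (0.501), beside a standard deviation of 1.23 for Cyp7b1 itself. Capn8 was at or near 0 outside the control, at 0 and 0 FPKM in western diet + oil, 0.474 and 0 in normal diet + CCl4 and 0.451 in western diet + CCl4. In normal diet + oil it was 1.39, 2.77 and 7.57. Susd4 is on the list of male-biased genes used above. Cyp2u1, a fatty acid hydroxylase, was 1.27 and 1.26 FPKM in western diet + oil, 1.49 and 1.73 in normal diet + CCl4 and 0.918 in western diet + CCl4, against 8.999, 7.09 and 7.04 in normal diet + oil. Lifr, a receptor for leukemia inhibitory factor, was 10.4 and 9.28, 17.5 and 16.1, and 6.96 FPKM in those 3 groups, against 35.4, 32.1 and 64.2 FPKM in normal diet + oil. The likeness describes these libraries and was not tested.

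Cyp8b1 (ENSMUSG00000050445, chr9:121914356-121916305, minus strand) was low in the libraries with CCl4. It was 20.1 and 31.1 FPKM in normal diet + CCl4 and 38.1 FPKM in western diet + CCl4, against 117 and 62.9 FPKM in western diet + oil and 114, 66.0 and 104 FPKM in normal diet + oil. The 3 CCl4 libraries lay below all 5 oil libraries, whatever the diet. Against normal diet + oil the log2 fold change was -1.84 ± 0.35 in normal diet + CCl4, just short of the threshold (limma adjusted p = 0.0524, 95% interval -2.65 to -1.04). It was -1.25 ± 0.44 in western diet + CCl4 (limma adjusted p = 0.236) and -0.10 ± 0.35 in western diet + oil (limma adjusted p = 0.891, 95% interval -0.90 to 0.71). Without the Mup genes, or without normal diet + CCl4 library 2, the comparison of normal diet + CCl4 passed (-1.99, limma adjusted p = 0.0466, and -2.14, limma adjusted p = 0.0290). It did not pass under any other setting run, with limma adjusted p values of up to 0.303, reached without normal diet + CCl4 library 1 (-1.54).

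Cyp7a1 (ENSMUSG00000028240, chr4:6265612-6275633, minus strand), the other enzyme of the classical route, ran the opposite way in the same libraries. It was 13.2 and 20.1 FPKM in normal diet + CCl4 and 12.8 FPKM in western diet + CCl4, against 12.3 and 8.96 FPKM in western diet + oil and 6.04, 8.26 and 8.71 FPKM in normal diet + oil. The 3 CCl4 libraries were above all 5 oil libraries, although western diet + oil library 1 came close, and the order did not hold with median-of-ratios scaling. The log2 fold change against normal diet + oil was 1.01 ± 0.24 in normal diet + CCl4 (limma adjusted p = 0.0955, 95% interval 0.46 to 1.57), 0.69 ± 0.30 in western diet + CCl4 (limma adjusted p = 0.340) and 0.42 ± 0.24 in western diet + oil (limma adjusted p = 0.339). None of these passed.

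The ratio of Cyp8b1 to Cyp7a1 within a library, which no scaling of a library alters, was 1.52 and 1.55 in normal diet + CCl4 and 2.97 in western diet + CCl4, against 9.57 and 7.02 in western diet + oil and 18.9, 7.99 and 11.9 in normal diet + oil. All 3 ratios with CCl4 were below the lowest with oil, 7.02. That separation follows from the opposite orders of Cyp8b1 and Cyp7a1 in FPKM and is no separate result. The ratio of Cyp7b1 to Cyp7a1, set across the alternative and classical routes, was 1.83 and 2.53 in western diet + oil, 1.96 and 0.979 in normal diet + CCl4 and 2.14 in western diet + CCl4, against 18.6, 10.8 and 19.8 in normal diet + oil. Here the control stood apart from all 3 other groups, as the opposite orders of Cyp7b1 and Cyp7a1 in FPKM had already fixed. Cyp7b1 made up 2.93% and 3.16% of the summed FPKM of the 8 enzymes in western diet + oil, 5.38% and 2.62% in normal diet + CCl4 and 4.51% in western diet + CCl4, against 12.9%, 11.1% and 18.5% in normal diet + oil.

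**Figure D4:**
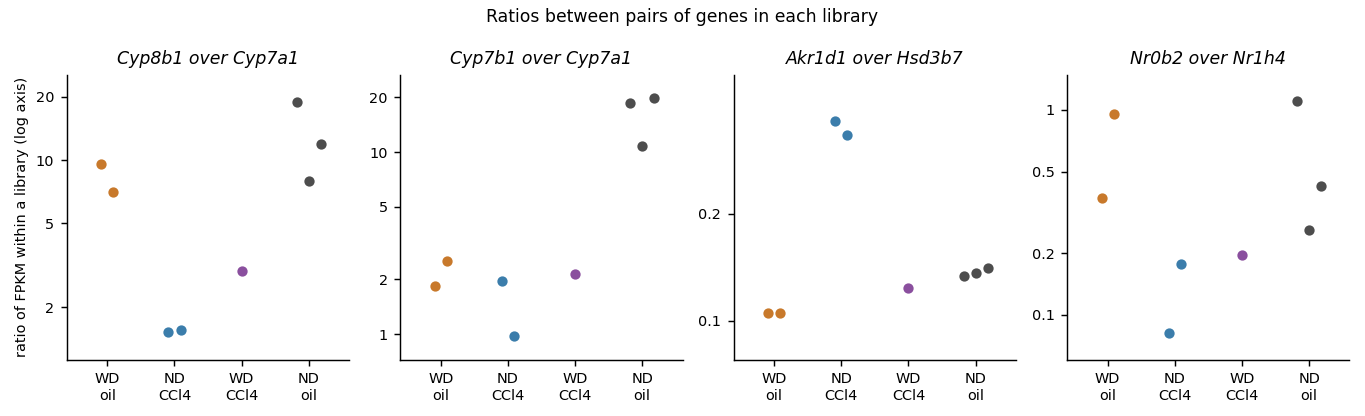
Ratio of FPKM within a library (log axes, one scale per panel) for Cyp8b1 over Cyp7a1, Cyp7b1 over Cyp7a1, Akr1d1 over Hsd3b7 and Nr0b2 over Nr1h4, with a point per library; WD is western diet and ND normal diet. The 3 CCl4 libraries have the lowest ratios of Cyp8b1 to Cyp7a1 (1.52 to 2.97) and of Nr0b2 to Nr1h4 (0.0816 to 0.196), and ND + CCl4 alone has ratios of Akr1d1 to Hsd3b7 above 0.3.

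The libraries were also set by injection, CCl4 against oil over both diets. Genes whose 3 CCl4 libraries all lay above or all below the 5 oil libraries made up 6.78% of those tested, 674 higher and 107 lower. Of the 10 bile acid genes, 2 were higher (Cyp7a1 and Nr1h4) and 2 were lower (Cyp8b1 and Nr0b2). Cyp8b1 and Nr0b2 kept this order under median-of-ratios scaling and without the Mup genes, Cyp7a1 without the Mup genes only, and Nr1h4 under neither. Without the Mup genes Cyp27a1 joined the lower genes, which made 3. In the additive model, with one term for diet and one for CCl4, the CCl4 term was -1.60 ± 0.29 for Cyp8b1 (limma adjusted p = 0.0910), 0.75 ± 0.22 for Cyp7a1 (adjusted p = 0.248) and -1.33 ± 0.43 for Nr0b2 (adjusted p = 0.273). In that model 0.0695% of all genes passed for the CCl4 term, and 0 of the 10 did. Set by diet over both injections, all 10 genes overlapped. The share of all genes that overlapped was not counted, so this is no result about the 10. The largest diet terms of the additive model were -1.42 ± 0.47 for Cyp7b1 (limma adjusted p = 0.165) and -0.67 ± 0.20 for Akr1d1 (limma adjusted p = 0.134), and 0 of the 10 genes passed.

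The promoters of Cyp8b1 and Nr0b2, both low in the CCl4 libraries, and of Akr1d1, described next, are shown with the letters that nuclear receptors and STAT5 are known to bind. Each runs from 250 bases before to 50 bases after the start of the gene, in RefSeq on GRCm38.p6, 5′ to 3′ on the strand of the gene. RefSeq promoters were matched for 6 of the 10 genes. Capitals mark the nuclear receptor element AGGTCA or its reverse complement TGACCT, and the STAT5-type palindrome TTCNNNGAA, both searched on both strands.
Cyp8b1 (chr9:121916256-121916555, minus strand): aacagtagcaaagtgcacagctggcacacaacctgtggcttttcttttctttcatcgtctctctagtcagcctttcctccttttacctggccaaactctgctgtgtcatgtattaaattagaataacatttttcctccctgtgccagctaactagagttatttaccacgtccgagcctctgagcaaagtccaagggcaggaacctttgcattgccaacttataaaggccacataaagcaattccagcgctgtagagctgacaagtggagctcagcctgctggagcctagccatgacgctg
Nr0b2 (chr4:133553126-133553425, plus strand): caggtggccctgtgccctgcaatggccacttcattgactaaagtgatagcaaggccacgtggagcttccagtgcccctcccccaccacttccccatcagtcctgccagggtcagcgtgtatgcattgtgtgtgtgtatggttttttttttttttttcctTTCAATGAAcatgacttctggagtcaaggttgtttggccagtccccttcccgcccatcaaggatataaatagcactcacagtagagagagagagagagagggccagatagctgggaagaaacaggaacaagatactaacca
Akr1d1 (chr6:37529923-37530222, plus strand): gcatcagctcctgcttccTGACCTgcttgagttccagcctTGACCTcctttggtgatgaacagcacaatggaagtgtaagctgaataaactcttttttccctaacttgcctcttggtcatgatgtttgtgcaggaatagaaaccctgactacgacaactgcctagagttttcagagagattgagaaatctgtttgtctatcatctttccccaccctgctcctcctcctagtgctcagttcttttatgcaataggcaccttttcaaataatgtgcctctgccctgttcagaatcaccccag
The window of Cyp8b1 held neither motif. That of Nr0b2 held a STAT5-type palindrome, TTCAATGAA, whose first base lies 91 bases before the start. That of Akr1d1 held TGACCT 232 and 210 bases before the start. Over 32851 promoter windows of this length, 16.3% held AGGTCA on either strand and 8.30% held TTCNNNGAA. The longer AAGGTCA, which contains AGGTCA and is of the type bound by Nr5a2, was in 4.72% of windows and the D-box TTATGTAA in 0.938%, and neither was in the 3 windows printed. An inverted repeat of AGGTCA with 1 base between, a kind of site that FXR can bind, was also searched. None of the 6 matched windows held it, even with up to 2 mismatches. Over all windows 0.00913% held it with 0 mismatches and 1.14% with up to 2. Of the windows not printed, that of Hsd3b7 held TTCCTGGAA 21 bases before its RefSeq start. That of Nr1h4 held TGACCT 214 bases before its RefSeq start, which lies 26927 bases from the GENCODE start, inside the GENCODE span of the gene. A match is a run of letters, not a shown binding site.

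Cyp27a1 (ENSMUSG00000026170, chr1:74713574-74737892, plus strand), which starts the alternative route, did not pass in any comparison. It was 154 and 245 FPKM in western diet + oil, 99.0 and 155 FPKM in normal diet + CCl4 and 124 FPKM in western diet + CCl4, against 214, 177 and 180 FPKM in normal diet + oil. Each value in normal diet + CCl4 lay below all 3 control values, while the 2 in western diet + oil lay on either side of them. The share of all genes with such an order was not counted, so it is no result about Cyp27a1. Its log2 fold change was 0.03 ± 0.28, -0.61 ± 0.28 and -0.61 ± 0.35 in the 3 groups (limma adjusted p = 0.958, 0.233 and 0.457, in that order). The ratio of Cyp7b1 to Cyp27a1, the second enzyme of the route over the first, was 0.146 and 0.0926 in western diet + oil, 0.262 and 0.127 in normal diet + CCl4 and 0.222 in western diet + CCl4, against 0.525, 0.503 and 0.956 in normal diet + oil. The highest ratio outside the control, 0.262, was below the lowest within it.

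Hsd3b7 and Akr1d1, which act in turn on the steroid rings in both routes, differed from each other in normal diet + CCl4. Hsd3b7 was 86.0 and 113 FPKM in normal diet + CCl4, 176 and 123 FPKM in western diet + oil and 124.5 FPKM in western diet + CCl4, against 132, 161 and 173 FPKM in normal diet + oil. The values in normal diet + CCl4 were below all 3 controls, but the share of all genes in that order was not counted, so this is no result about Hsd3b7. Its largest difference from the control, a log2 fold change of -0.64 ± 0.24 in normal diet + CCl4, did not pass (limma adjusted p = 0.181). Hsd3b7 (ENSMUSG00000042289, chr7:127800604-127803802, plus strand) overlaps Gm49388 on its own strand and 9430064I24Rik on the other in GENCODE M21. The sources used here do not say whether reads were counted by strand, so reads of these genes may be mixed.

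Akr1d1 (ENSMUSG00000038641, chr6:37530173-37568815, plus strand, with Gm7463 inside its span) was 31.4 and 37.8 FPKM in normal diet + CCl4, 18.6 and 12.9 FPKM in western diet + oil and 15.4 FPKM in western diet + CCl4, against 17.7, 21.9 and 24.4 FPKM in normal diet + oil. Both values with CCl4 on the normal diet were above the other 6 libraries, an order that was lost with median-of-ratios scaling (26.1 in normal diet + CCl4 library 1, against 29.0 in normal diet + oil library 3). The value with CCl4 on the western diet was below all 3 controls. The share of all genes in either order was not counted, so neither is a result about Akr1d1. Its log2 fold change was 0.68 ± 0.22 in normal diet + CCl4 (limma adjusted p = 0.150; 0.36 with median-of-ratios scaling, limma adjusted p = 0.586), -0.42 ± 0.22 in western diet + oil (limma adjusted p = 0.290) and -0.43 ± 0.28 in western diet + CCl4 (limma adjusted p = 0.504). Set against normal diet + CCl4, it was -1.11 ± 0.29 in western diet + CCl4 (limma adjusted p = 0.294) and -1.10 ± 0.24 in western diet + oil (limma adjusted p = 0.109). The ratio of Akr1d1 to Hsd3b7 was 0.366 and 0.334 in normal diet + CCl4, 0.105 in both libraries of western diet + oil and 0.124 in western diet + CCl4, against 0.134, 0.136 and 0.141 in normal diet + oil. The ratio was nearly the same in the libraries of a group. It set normal diet + CCl4 apart from the other 3 groups, as the opposite orders of Akr1d1 and Hsd3b7 in FPKM had already fixed. That separation is no separate result.

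Neither conjugating enzyme passed in any comparison. Baat (ENSMUSG00000039653, chr4:49489422-49506557, minus strand) was 72.9 and 68.0 FPKM in western diet + oil, 63.8 and 81.3 FPKM in normal diet + CCl4 and 58.2 FPKM in western diet + CCl4, against 81.5, 69.3 and 87.9 FPKM in normal diet + oil. Its 95% intervals against the control were -0.62 to 0.28, -0.58 to 0.31 and -1.004 to 0.13 in log2 units, at limma adjusted p values of 0.634, 0.650 and 0.447, which bounds a fall but does not show equal levels. Slc27a5 (ENSMUSG00000030382, chr7:12988346-12998192, minus strand) was 193 and 175 FPKM in western diet + oil, 143 and 294 FPKM in normal diet + CCl4 and 209 FPKM in western diet + CCl4, against 192, 210.1 and 180.2 FPKM in normal diet + oil. The libraries in normal diet + CCl4 held both its lowest and its highest value, and its log2 fold change was -0.08 ± 0.30, 0.08 ± 0.30 and 0.11 ± 0.37 in the 3 groups (limma adjusted p = 0.902, 0.866 and 0.916). The 8 enzymes together summed to 767 and 719 FPKM in western diet + oil, 482 and 752 in normal diet + CCl4 and 609 in western diet + CCl4, against 871, 802 and 930.5 in normal diet + oil. All 5 sums outside the control were below its lowest, but not when Cyp7b1 was left out: the other 7 enzymes summed to 744 and 696 FPKM in western diet + oil, 456 and 732 in normal diet + CCl4 and 582 in western diet + CCl4, against 758, 713 and 758 in normal diet + oil, where 744 and 732 lie above 713.

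Nr1h4 (ENSMUSG00000047638, chr10:89454234-89533585, minus strand), which encodes FXR, was 54.4 and 49.2 FPKM in normal diet + CCl4 and 40.8 FPKM in western diet + CCl4, against 39.3 and 33.4 FPKM in western diet + oil and 35.1, 39.6 and 29.7 FPKM in normal diet + oil. The 3 CCl4 libraries were highest, the lowest of them by a small margin. Its log2 fold change against normal diet + oil was 0.57 ± 0.19 in normal diet + CCl4 (limma adjusted p = 0.156), 0.23 ± 0.24 in western diet + CCl4 (limma adjusted p = 0.690) and 0.07 ± 0.19 in western diet + oil (limma adjusted p = 0.859).

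Nr0b2 (ENSMUSG00000037583, chr4:133553376-133556536, plus strand), the repressor that FXR induces, lay the other way, at 4.44 and 8.73 FPKM in normal diet + CCl4 and 7.98 FPKM in western diet + CCl4, against 14.6 and 32.1 FPKM in western diet + oil and 38.7, 10.3 and 12.7 FPKM in normal diet + oil. The 3 CCl4 libraries were again apart from the 5 with oil, but both oil groups spread widely. The log2 fold change was -1.33 ± 0.57 in normal diet + CCl4 (limma adjusted p = 0.215), -1.03 ± 0.72 in western diet + CCl4 (limma adjusted p = 0.539) and 0.31 ± 0.57 in western diet + oil (limma adjusted p = 0.773, 95% interval -0.996 to 1.62). The ratio of Nr0b2 to Nr1h4 was 0.0816 and 0.178 in normal diet + CCl4 and 0.196 in western diet + CCl4, against 0.370 and 0.960 in western diet + oil and 1.10, 0.260 and 0.427 in normal diet + oil. Every ratio with CCl4 was below 0.260, the lowest with oil, which follows from the opposite orders of Nr0b2 and Nr1h4 in FPKM.

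Other genes of the pathway came from lists. Of 15 other genes of bile acid synthesis 14 were tested, and 1 passed: Cyp39a1, an oxysterol hydroxylase of a minor route, rose in normal diet + CCl4. It was 10.4 and 7.95 FPKM there, 1.93 and 2.80 FPKM in western diet + oil and 4.48 FPKM in western diet + CCl4, against 3.17, 1.24 and 2.65 FPKM in normal diet + oil, and its log2 fold change was 1.64 ± 0.28 in normal diet + CCl4 (limma adjusted p = 0.0389). The medians of the 14 were 0.18 in western diet + oil, 0.33 in normal diet + CCl4 and 0.10 in western diet + CCl4.

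Of 13 FXR targets and feedback genes 11 were tested, and 2 rose in western diet + oil. Abcb4, which moves phospholipid into bile, was 51.4 and 55.6 FPKM in western diet + oil, 42.7 and 49.4 in normal diet + CCl4 and 43.8 in western diet + CCl4, against 32.6, 30.8 and 29.1 in normal diet + oil (0.78 ± 0.16 in western diet + oil, limma adjusted p = 0.0433). Apoc2, the cofactor of lipoprotein lipase, was 140 and 618 FPKM in western diet + oil, 631 and 234 in normal diet + CCl4 and 596 in western diet + CCl4, against 15.9, 45.2 and 35.7 in normal diet + oil (3.27 ± 0.70 in western diet + oil, limma adjusted p = 0.0454). None of the 11 passed in the 2 groups with CCl4. The bile salt export pump Abcb11, an FXR target, was 52.1 and 31.2 FPKM in western diet + oil, 39.4 and 72.2 in normal diet + CCl4 and 39.0 in western diet + CCl4, against 57.5, 62.1 and 76.1 in normal diet + oil, and missed the threshold in all 3 comparisons (limma adjusted p = 0.250, 0.575 and 0.441). Fgf15 was listed at 0 in all 8 libraries.

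**Figure D5:**
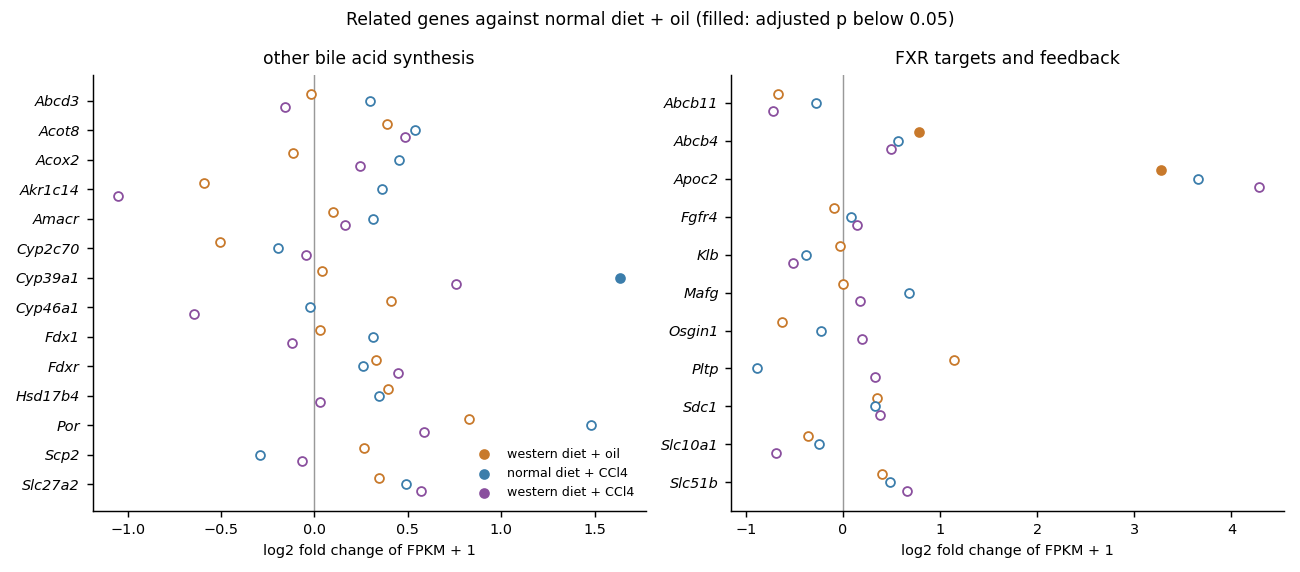
Log2 fold change of FPKM + 1 against normal diet + oil for 14 other genes of bile acid synthesis (left) and 11 FXR targets and feedback genes (right), with a point for each of western diet + oil, normal diet + CCl4 and western diet + CCl4; filled points have a limma adjusted p below 0.05. The 3 filled points are Cyp39a1 in normal diet + CCl4 (1.64), and Abcb4 (0.78) and Apoc2 (3.27) in western diet + oil.

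None of 14 regulators of the pathway passed in any of the 3 comparisons, with medians of 0.17, 0.21 and 0.22. Of 8 targets of LXR, the oxysterol receptor, 1 rose in western diet + oil (Abcg1, 1.40 ± 0.31, limma adjusted p = 0.0493) and none passed in the other groups, with medians of 1.04, -0.09 and 0.24. Abcg1 was low throughout. It was 2.35 and 2.86 FPKM in western diet + oil, 2.64 and 0.610 in normal diet + CCl4 and 1.63 in western diet + CCl4. In normal diet + oil it was 0.325, 0.359 and 0.407, near the lowest values above 0. The zones of the lobule were read through 9 pericentral and 9 periportal genes that could be tested. With western diet + oil the pericentral Rhbg rose (1.14 ± 0.20, limma adjusted p = 0.0272), the pericentral Cyp1a2 fell (-2.29 ± 0.25, limma adjusted p = 0.0111) and the periportal Hal fell (-1.49 ± 0.33, limma adjusted p = 0.0466). With normal diet + CCl4 the pericentral Slc1a2 fell (-2.81 ± 0.28, limma adjusted p = 0.00518), as did Glul (-1.81 ± 0.25, limma adjusted p = 0.0227), and the periportal Hsd17b13 rose (1.37 ± 0.24, limma adjusted p = 0.0404). With western diet + CCl4 Cyp1a2 (-2.99 ± 0.31) and Slc1a2 (-2.49 ± 0.35) fell (limma adjusted p = 0.00696 and 0.0265). Cyp7a1 is itself a pericentral gene in mouse liver, and the part of these shifts in its level was not tested.

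The remaining comparisons were among the groups outside the control. None of the 10 bile acid genes passed in western diet + CCl4 against western diet + oil, where 0.0434% of all genes did, in western diet + CCl4 against normal diet + CCl4, where 0.261% did, or in western diet + oil against normal diet + CCl4, where 0.617% did. At an unadjusted limma p below 0.05, 482, 818 and 1279 of all genes passed in these 3 comparisons, and of the 10 genes 1 (Cyp8b1), 1 (Akr1d1) and 4 (Cyp8b1, Akr1d1, Nr1h4 and Nr0b2). The largest difference of a bile acid gene was in the last, where the log2 fold change of Cyp8b1 was 1.74 ± 0.38 (limma adjusted p = 0.112), that of Nr0b2 1.64 ± 0.62 (limma adjusted p = 0.379) and that of Nr1h4 -0.50 ± 0.21 (limma adjusted p = 0.420). In western diet + CCl4 against western diet + oil, Cyp8b1 was at -1.15 ± 0.47 and Nr0b2 at -1.34 ± 0.76 (limma adjusted p = 1 for both).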

How the data were processed

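Values were deposited as FPKM for 55487 genes in each of 8 libraries, made by the authors from TruSeq Stranded mRNA libraries of liver. The submitters' processing notes name the build GRCm38 and HISAT2 2.2.1, StringTie 2.1.0, cutadapt 3.7 and FastQC 0.11.9, with no role or order. No counts were used, so the depth is unknown and intervals cover the scatter of libraries only. The lowest value above 0 in a library was 0.252 to 0.318 FPKM.

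Genes with at least 1 FPKM in at least 2 libraries (11514) were fitted on log2(FPKM + 1), a scale that understates changes of low genes, with limma 3.58.1 in R 4.3.3 (eBayes with a trend). All 4 group means entered 1 fit (4 residual and 3.93 prior degrees of freedom), and the 1 library of western diet + CCl4 was taken to vary as other groups do. There were 7 comparisons. Tests were two-sided, with Benjamini-Hochberg adjustment within a comparison and a threshold of 0.05. The fit was tested on simulated data.

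The 10 genes and the gene lists were chosen with earlier results of these data known. All 10 are named, with up to 4 passing genes of a pathway list and the 4 genes most like Cyp7b1; Abcb11, Dbp and Arntl were added after their values were seen. Replicate numbers came from the labels, and coordinates from GENCODE M21. Alternatives were a pseudocount of 0.1, no filter, median-of-ratios scaling, removal of the Mup genes, robust eBayes, a replicate block, each library left out in turn and an additive model of diet and CCl4.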

Additional observations from a re-analysis of the deposited data

How the results depend on the processing

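Of the 10 genes, 1 passed in each comparison with normal diet + oil and 0 in the other 4. For western diet + oil the number passing was 0 in the additive model and 0 to 1 with a library left out. For normal diet + CCl4 it was 0 without a filter (Cyp7b1, limma adjusted p = 0.0619), 2 without the Mup genes, 0 in the additive model and 0 to 2 with a library left out. For western diet + CCl4 it was 0 with a pseudocount of 0.1 (limma adjusted p of Cyp7b1 0.0700), without a filter (0.0786), with median-of-ratios scaling (0.0552), without the Mup genes (0.0515), with the replicate block (0.0933) and in the additive model (0.0795), and 0 to 1 with a library left out: 0 without western diet + oil library 1 or 2 or normal diet + oil library 1 or 2. The cause was not tested. Cyp7b1 stayed below normal diet + oil in all of these.

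Counts of all genes passing moved more. For western diet + oil 508 passed, 32 with the replicate block, 121 without a filter and 4 to 1159 with a library left out. For normal diet + CCl4 164 passed, 49 with the block, 18 without a filter and 22 to 1165 with a library left out, and for western diet + CCl4 107, 6, 171 and 36 to 486. Deviations from the group mean in libraries with the same number had correlations from -0.279 to -0.014. In groups this small these correlations depend on each other, and western diet + CCl4 was left out. They therefore cannot decide whether the numbers pair the samples, and the block was used as an alternative only.

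Signs turned only for log2 fold changes that did not pass. With western diet + oil, Cyp27a1 was -0.24 with median-of-ratios scaling, -0.11 without the Mup genes, -0.0046 with the replicate block and -0.30 to 0.37 with a library left out. Hsd3b7 was 0.015 with the block, 0.075 in the additive model and -0.33 to 0.19 with a library left out. Nr1h4 was -0.20, -0.076 and -0.039 with the same scalings and the block, -0.076 in the additive model and -0.047 to 0.18 with a library left out. Cyp8b1 was 0.15 in the additive model and -0.54 to 0.35 with a library left out, and Nr0b2 was -0.23 to 0.87 with a library left out. With normal diet + CCl4, Slc27a5 was -0.25 with median-of-ratios scaling, -0.068 without the Mup genes and -0.44 to 0.60 with a library left out, and Baat was -0.31 to 0.037 with a library left out. With western diet + CCl4, Slc27a5 was -0.12 and -0.049 under those scalings. Cyp7b1 was -1.42 in the additive model for western diet + CCl4 against western diet + oil and against normal diet + CCl4, and -0.19 to 0.19 with a library left out for western diet + oil against normal diet + CCl4. Of 416 further alternative values, 34 took the other sign and 0 passed. FPKM without counts gives no depth, so a low value's counting error is unknown.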
